A study of Mus musculus with 16 samples.

Results

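Triglyceride synthesis enzymes were followed here as 8 genes, Gpam, Agpat2, Agpat3, Lpin1, Lpin2, Dgat1, Dgat2 and Mogat1, in liver RNA from mice. The members were chosen by symbol, 1 gene ID each, out of 35275 gene IDs in the deposited table. The study crossed genotype with diet in 4 groups of 4 libraries. WT mice served as the wild type and LKO mice lacked Zfp36l1 in the liver, and each genotype received a control diet or a diet with ethanol. The 4 groups are called WT control, WT ethanol, LKO control and LKO ethanol. Strain, sex, age, length of feeding, the deleted stretch of Zfp36l1 and the Cre line are not stated in the labels, nor is it stated whether WT animals carried a floxed allele. Libraries are numbered 1 to 4 within a group in record order, and the labels do not pair libraries across groups by these numbers.

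Hepatocytes build triglyceride by adding fatty acids to glycerol 3-phosphate in steps. Glycerol-3-phosphate acyltransferase (Gpam) adds the first acyl chain, acylglycerophosphate acyltransferases (Agpat2, Agpat3) add the next and give phosphatidic acid, lipins (Lpin1, Lpin2) remove its phosphate to give diacylglycerol, and diacylglycerol acyltransferases (Dgat1, Dgat2) add the last chain. Monoacylglycerol acyltransferase (Mogat1) reaches diacylglycerol by another route, from monoacylglycerol. Fat accumulates in the liver during heavy ethanol intake, and Zfp36l1 codes for an RNA-binding protein that speeds the decay of messengers with AU-rich 3′ untranslated regions.

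Values are FPKM, fragments per kilobase of gene scaled to library size, so levels of different genes can be set side by side. Recovered read totals were 9890475 in WT ethanol library 2 and 19069903 to 24768569 in the other 15 libraries. WT ethanol library 2 stood apart: its mitochondrial share of reads was 22.5%, against 3.64 to 6.97% in the others, and its median rank correlation across genes with other libraries was 0.709, against 0.943 to 0.964. Its 6 cholangiocyte markers summed to 77.6 FPKM, against 11.0 to 28.9 in the others. Among the 15 others, the leading component of variation within groups separated libraries 1 and 2 of every group (called side A) from libraries 3 and 4 (side B). That component, computed without the 8 enzymes, held 40% of the variance within groups, and the labels name no batch. Zfp36l1 itself was between 9.30 and 25.5 FPKM in WT and between 0.572 and 1.76 in LKO libraries. The 6 hepatocyte markers summed to 66799 to 73402 FPKM on side A and to 42173 to 63993 on side B, with 62149 in WT ethanol library 2. Of 6 pancreatic acinar markers, 4 were under 0.1 FPKM throughout and 3 at 0, and Cela1 was the 1 with a group mean of at least 1 FPKM. The labels do not state that each library came from a separate animal, so p-values measure the spread between these libraries, which may be technical.

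The AU-rich core TATTTAT, which proteins of the Zfp36 family are known to bind, was searched on the transcribed strand of the longest annotated 3′ untranslated region of each member (GENCODE M21, GRCm38). The core was found in 3 of the 8 members, once in Agpat3 and in Dgat2 and at 2 places in Lpin1. Windows of 23 bases around each site are shown 5′ to 3′, with the core in capitals, because Zfp36l1, the gene deleted in LKO livers, belongs to that family. All lie on the minus strand.
Lpin1 at chr12:16537749-16537771: ggctgggcTATTTATgccttaac
Lpin1 at chr12:16537473-16537495: gcagatatTATTTATttctttac
Agpat3 at chr10:78269757-78269779: tctacttgTATTTATtgtctcag
Dgat2 at chr7:99154305-99154327: gaggctgaTATTTATgggccttg
The Lpin1 site at 16537473 also holds the longer motif TTATTTATT. Gpam, Agpat2, Lpin2, Dgat1 and Mogat1 held no TATTTAT in the region searched. Among all 10523 tested genes with an annotated region, 29.1% held the core. Length decides much of that share: among genes with regions of like length, the core was present in 49.0% for Lpin1, 62.8% for Agpat3 and 21.2% for Dgat2, and in 49.1% for Lpin2, which had none. A match is a description of letters and not of binding.

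Promoters were taken from RefSeq (GRCm38.p6), with 9 windows for 6 of the 8 members. Dgat1 and Dgat2 had no window. The 250 bases before the start of the longest-reaching Gpam and Lpin1 transcripts are shown 5′ to 3′ on the minus strand. Lpin1 was chosen because it was called for ethanol averaged over genotypes, and Gpam because it is the entry enzyme. Capitals mark a CCAAT box on the opposite strand, beginning 74 bases before the Gpam start.
Gpam at chr19:55127239-55127488: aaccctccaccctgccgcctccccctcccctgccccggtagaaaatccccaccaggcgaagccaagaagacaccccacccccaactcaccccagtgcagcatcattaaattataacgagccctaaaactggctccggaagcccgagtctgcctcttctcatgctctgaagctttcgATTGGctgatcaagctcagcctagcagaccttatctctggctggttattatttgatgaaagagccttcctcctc
Lpin1 at chr12:16610967-16611216: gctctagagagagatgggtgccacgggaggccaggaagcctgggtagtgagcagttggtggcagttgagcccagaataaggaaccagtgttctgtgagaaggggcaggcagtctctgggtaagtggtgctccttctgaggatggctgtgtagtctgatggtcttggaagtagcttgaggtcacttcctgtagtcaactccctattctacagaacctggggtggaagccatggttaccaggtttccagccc
Both strands of all 9 windows of 300 bases were searched for 4 motifs that could overlap each other. The E-box CACGTG was in a Lpin2 window and in 7.15% of 32851 promoters. CCAAT was in windows of Gpam, Lpin2 and Mogat1 and in 37.4% of promoters. The sterol regulatory element TCACNCCAC (1.24% of promoters) and the direct repeat 1 consensus (0.04% of promoters) were in none of the 9.

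Dgat2 was the most abundant of the 8 enzymes in every group, at a mean of 248.6 to 403.6 FPKM, and Mogat1 was the least abundant, at 0.421 to 1.37. In WT control livers the order of mean FPKM was Dgat2, Agpat2, Lpin2, Lpin1, Agpat3, Gpam, Dgat1 and Mogat1. Only Dgat2 over Agpat2, Gpam over Dgat1 and Dgat1 over Mogat1 were neighbours in this order whose 4 libraries did not overlap. In LKO control livers Lpin1 moved to the place after Dgat2, with a range that overlapped that of Agpat2. Dgat2 made up 49.1 ± 2.37% of the summed FPKM of the 8 enzymes in WT control (SD, n = 4 here and below), 48.0 ± 5.44% in WT ethanol, 52.8 ± 6.95% in LKO control and 60.8 ± 1.27% in LKO ethanol. The sum itself was 639 ± 107 FPKM in WT control, 508 ± 203 in WT ethanol, 772 ± 92.3 in LKO control and 590 ± 41.7 in LKO ethanol. Library 2 lowered the WT ethanol mean, with a sum of 218 FPKM where the highest of that group was 651.

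**Figure D1:**
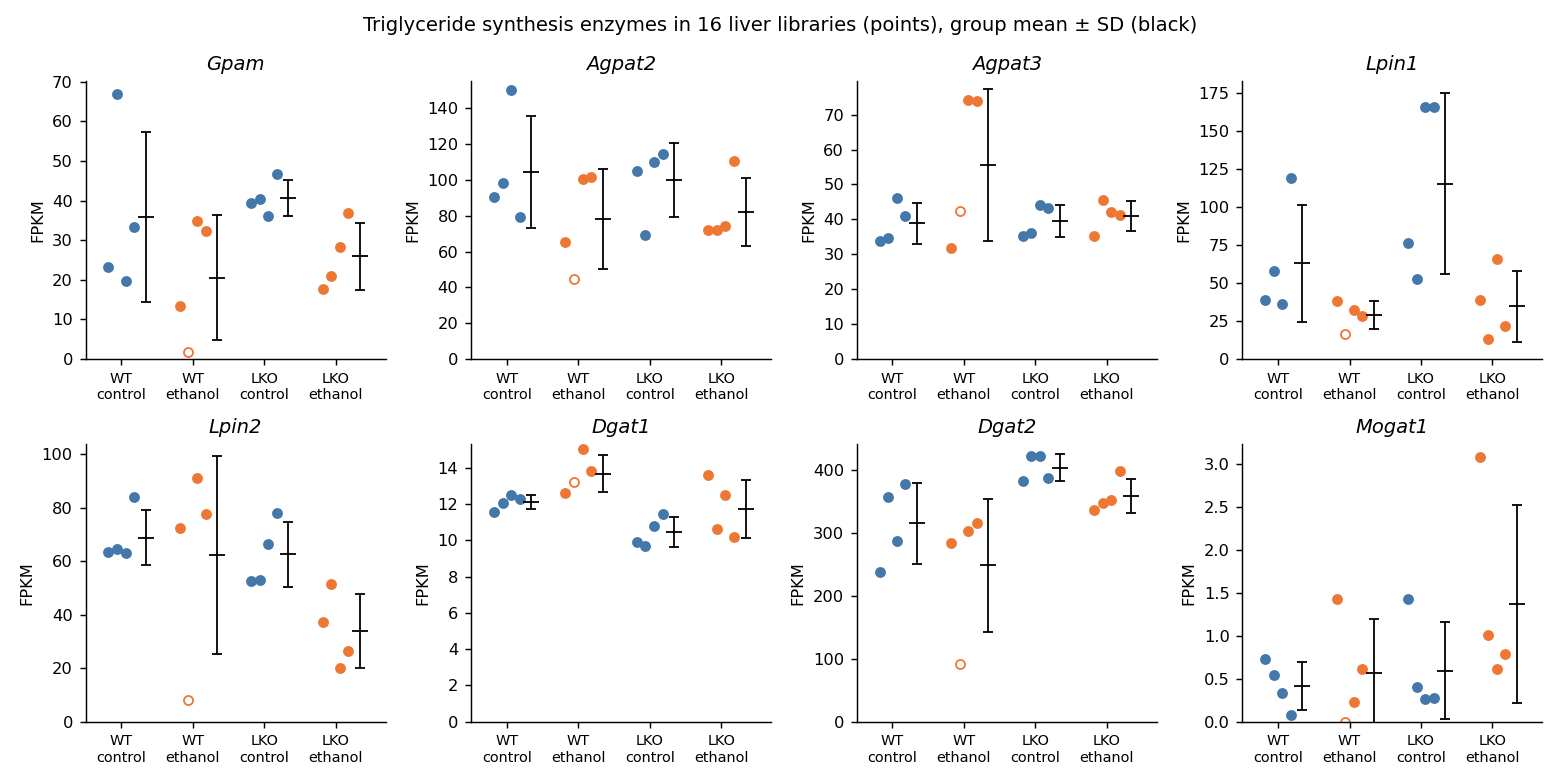
FPKM (vertical axes, linear, each from 0) of the 8 enzymes in the 16 libraries, by group (horizontal axes), control diet in blue and ethanol in orange, with WT ethanol library 2 as an open circle and group mean ± SD in black. Lpin1 lies lower in most ethanol libraries, Lpin2 is lowest in LKO ethanol apart from the open circle, and Dgat2 is higher in every LKO library than in the WT libraries of the same diet.

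Averaged over genotypes, ethanol went with a lower Lpin1 transcript, though this call was lost when any of 4 libraries was left out. LKO livers had more Dgat2 relative to Dgat1. Most of the 8 enzymes did not pass the test in any contrast. Differences were tested with limma on log2(FPKM + 1) across 11298 genes, and a gene was called at a Benjamini-Hochberg adjusted p under 0.05. For ethanol against control, averaged over the genotypes, 1 of 8 members was called, against 7.78% of all genes (3.19% called lower). Within WT, 0 of 8 were called, against 4.18% of genes, and within LKO 0 of 8 against 0.425%. A limma-voom fit on recovered reads gave the same 3 counts, against 7.13%, 3.01% and 0.434% of all genes. At an unadjusted p under 0.05 there were 2 members (Lpin1 and Gpam) in the averaged ethanol contrast, 0 in WT and 1 (Lpin1) in LKO, against 21.6%, 19.7% and 9.19% of all genes. Without WT ethanol library 2 the averaged Gpam difference was −0.51, with an unadjusted limma p of 0.0663. The median ethanol difference of the 8 was −0.342 (log2), with 3 higher and 5 lower, beside 0.0225 over all genes. It was −0.176 without WT ethanol library 2 (all genes 0.113) and −0.0785 with weights for each library's own spread (array weights, all genes 0.136).

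Between genotypes few genes were called with all libraries in this fit. LKO against WT called 0 of 8 members on the control diet (0.00885% of all genes), 0 on the ethanol diet (0.0797%) and 0 averaged over diets (0.142%), where Dgat2 alone had an unadjusted p under 0.05, against 10.4% of all genes. The interaction, which is the ethanol difference in LKO minus that in WT, called 0 members and 0 genes (0%). The limma-voom fit also called 0 members in these 4 contrasts, where it called 0.00885%, 0.0443%, 0.0885% and 0% of all genes. In limma on log2(FPKM + 1), at an unadjusted p under 0.05 there were 0 members on the control diet, on ethanol and in the interaction, against 3.45%, 11.9% and 3.2% of all genes. The share of all genes called between genotypes depended on the fit: averaged over diets it was 34.1% with array weights. The median difference of the 8, averaged over diets, was 0.195, beside −0.083 over all genes. It was 0.0463 without WT ethanol library 2 (4 higher and 4 lower, all genes −0.177) and −0.114 with array weights (all genes −0.224).

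Leaving out WT ethanol library 2 raised the counts of called genes: 20.5% for ethanol averaged over genotypes, 9.48% in WT, 3.62% in LKO, 0.221% for LKO against WT on ethanol and 1.07% averaged over diets. Of the members, Lpin1 was then called for the averaged ethanol contrast and Lpin2 within LKO, and no others in these 5 contrasts. Relative to the mean of the other 3 WT ethanol libraries, library 2 held 0.069 times as much Gpam, 0.102 times as much Lpin2 and 0.302 times as much Dgat2. It held 0.494 times as much Lpin1, 0.505 times as much Agpat2, 0.707 times as much Agpat3 and no Mogat1 reads, but 0.957 times as much Dgat1. Values without it are given beside the member values it moves most.

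**Figure D2:**
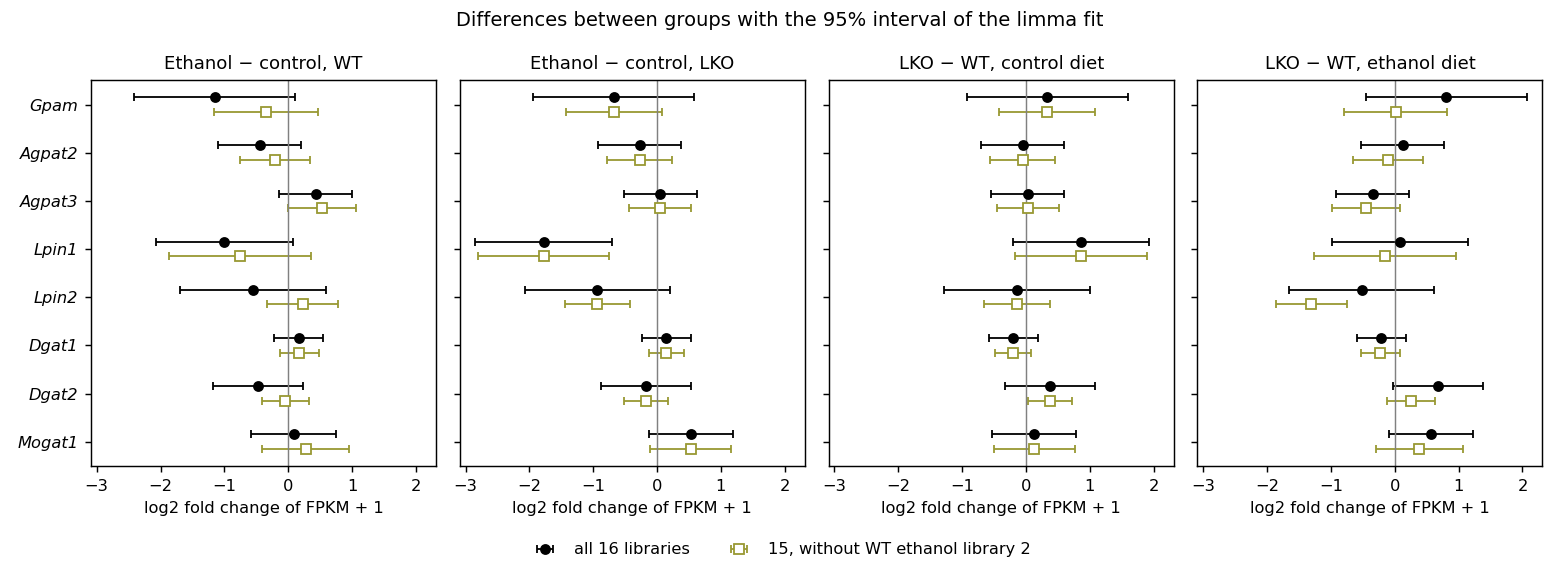
Differences in log2(FPKM + 1) (horizontal axes) of each enzyme in 4 contrasts, with the 95% interval of the limma fit, for all 16 libraries (black circles) and for 15 without WT ethanol library 2 (open squares). The Lpin1 interval for ethanol in LKO lies below 0 in both fits, and the Lpin2 interval for LKO against WT on ethanol lies below 0 only without that library.

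Gpam (ENSMUSG00000024978, chromosome 19, 55067268 to 55127238, minus strand), the mitochondrial enzyme of the entry step, measured 23.3, 66.9, 19.7 and 33.3 FPKM in WT control libraries 1 to 4. The LKO control libraries measured 39.4, 40.3, 36.0 and 46.8 FPKM. With ethanol it measured 13.3, 1.85, 34.8 and 32.3 in WT and 17.8, 20.9, 28.3 and 36.7 in LKO. Thus the WT control libraries spread over a 3.39-fold range and the LKO control libraries over a 1.3-fold range, and the groups overlapped in all 4 comparisons of diets or genotypes. The value of 1.85, from library 2, rested on 70 reads, against 994 to 6116 in all the other WT libraries. In WT the ethanol difference was −1.15 (log2, SE 0.598, adjusted p = 0.302), and it was −0.35 (SE 0.382, adjusted p = 0.597) without library 2. In LKO it was −0.68 (SE 0.598, adjusted p = 0.876). Without library 2, the LKO difference from WT on ethanol was 0.01, with a 95% interval from −0.80 to 0.83, where all libraries gave 0.81.

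Agpat2 and Agpat3 both add the next acyl chain. Loss of Agpat2 causes lipodystrophy, and Agpat3 also acts in phospholipid remodelling. Agpat2 (ENSMUSG00000026922, chromosome 2, 26593057 to 26604417 on the minus strand) measured 104 ± 31.3 FPKM in WT control, 78.1 ± 27.8 in WT ethanol, 99.8 ± 20.8 in LKO control and 82.2 ± 18.9 in LKO ethanol. Agpat3 (ENSMUSG00000001211, chromosome 10, 78269178 to 78352489 on the minus strand) measured 38.9 ± 5.84, 55.6 ± 21.7, 39.7 ± 4.59 and 41.0 ± 4.34 FPKM in the same groups. Neither was called in any contrast of this fit, and for both genes the groups overlapped in all 4 comparisons of diets or genotypes. The ethanol difference of Agpat2 in WT was −0.45 (log2, SE 0.308, adjusted p = 0.448), and −0.21 (SE 0.258, adjusted p = 0.644) without WT ethanol library 2. LKO against WT on ethanol, Agpat2 differed by 0.12 with that library and by −0.11 without it (95% interval −0.66 to 0.44).

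The Agpat3 spread in WT ethanol came from 2 pairs of libraries. Its 4 values there were 31.9, 42.4, 74.2 and 73.9 FPKM, while the other 12 libraries lay between 33.8 and 46.3. Libraries 3 and 4, on side B, were thus the highest of all 16. Within side B the ethanol difference in WT was 0.75 (log2) and within side A, with 1 WT ethanol library, it was −0.10. Over all WT libraries it was 0.43 (SE 0.271, adjusted p = 0.406), and without library 2 it was 0.53 (SE 0.249, adjusted p = 0.192). Cell type markers moved with Agpat3 in these libraries. WT ethanol libraries 3 and 4 had the highest stellate cell and fibroblast sums of all 16 (45.7 and 57.2 FPKM over 6 markers, none at 0 in all libraries, against 13.8 to 31.3 in the others). Their Kupffer cell and macrophage sums were 179 and 218 FPKM, against 38.0 to 212 in the others, and their hepatocyte marker sums were the lowest of all, at 52631 and 42173. The part of these markers in the Agpat3 values was not tested.

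Lpin1 and Lpin2 encode phosphatidic acid phosphatases, and lipin 1 is also known as a coactivator of fatty acid oxidation genes in the liver. Lpin1 was the 1 member called. Lpin1 (ENSMUSG00000020593, chromosome 12, 16535669 to 16610966 on the minus strand) measured 38.8, 57.9, 36.4 and 119 FPKM in WT control and 38.2, 16.2, 32.5 and 27.9 in WT ethanol libraries. The LKO libraries measured 76.3, 52.3, 166 and 166 FPKM without ethanol and 38.8, 12.9, 65.9 and 21.5 on ethanol. The ethanol libraries were lower on the whole, but the groups overlapped in both genotypes, since library 3 of LKO ethanol (65.9) exceeded library 2 of LKO control (52.3). Averaged over genotypes, Lpin1 fell by 1.39 on the log2 scale with ethanol, which is a 2.62-fold lower FPKM + 1 (SE 0.358, 95% interval −2.14 to −0.63, adjusted p = 0.0249).

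Within single genotypes the Lpin1 difference did not pass the test: it was −1.0 (adjusted p = 0.288) in WT and −1.78 (adjusted p = 0.165) in LKO, and the interaction was −0.78 (SE 0.716, adjusted p = 0.927). A fit with a term for side A against side B and without WT ethanol library 2 did call the difference in LKO (adjusted p = 0.0218, 10.7% of all genes called). The sides were drawn from the spread of these same libraries, so p-values of that fit can be too small. All 4 values within sides were negative, at −0.31 (1 WT ethanol library) and −1.10 for WT on sides A and B, and −1.45 and −2.10 for LKO. Without WT ethanol library 2 the averaged difference was −1.27 (adjusted p = 0.0207), and that in WT was −0.76 (adjusted p = 0.383). The call was lost when WT control library 4, LKO control library 3, LKO control library 4 or LKO ethanol library 2 was left out, with adjusted p up to 0.0601, and when genes of low FPKM were not filtered out (adjusted p = 0.0691). In bulk liver, fewer cells that express a gene and less RNA per cell cannot be told apart. The 6 adipocyte markers summed to 6.35 to 19.8 FPKM on the control diet and to 20.7 to 90.5 on ethanol. Of these markers 1 had a group mean of at least 1 FPKM, Fabp4, whereas Adipoq, Lep and Retn were under 0.1 in all libraries. The part of Fabp4-expressing cells in the Lpin1 difference was not tested.

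LKO control livers held 115 ± 59.4 FPKM of Lpin1 and WT control livers 62.9 ± 38.4. This difference was 0.86 (log2, SE 0.506, 95% interval −0.21 to 1.93, adjusted p = 1.0). The 2 libraries at 166 both lay on side B, where the genotype difference was 1.32, against 0.41 on side A.

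Lpin2, the lipin most characteristic of liver, was lowest in LKO mice on ethanol. Lpin2 (ENSMUSG00000024052, chromosome 17, 71182560 to 71249817 on the plus strand) measured 63.5, 64.4, 63.2 and 84.1 FPKM in WT control and 72.3, 8.23, 91.3 and 77.8 in WT ethanol libraries. The LKO libraries measured 52.7, 53.0, 66.6 and 77.9 FPKM without ethanol and 37.2, 51.7, 19.97 and 26.5 on ethanol. The LKO ethanol libraries all lay below all LKO control libraries, and below all WT ethanol libraries except library 2. Lpin2 was the 1 member of 8 whose LKO groups did not overlap between diets, against 12.3% of all genes.

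With all libraries Lpin2 was not called: the ethanol difference in LKO was −0.93 (log2, SE 0.541, adjusted p = 0.678), and LKO against WT on ethanol it was −0.52 (SE 0.541, adjusted p = 0.736). Leaving out WT ethanol library 2 narrowed the standard error, and the same −0.93 in LKO then had an SE of 0.242 and an adjusted p of 0.0439. LKO against WT on ethanol became −1.30, or 2.47-fold lower (SE 0.261, 95% interval −1.86 to −0.75, adjusted p = 0.0566), short of the threshold. On that diet 2 of 8 members, Lpin2 (lower) and Dgat2 (higher), then had groups that did not overlap, against 7.03% of all genes. The interaction for Lpin2 without library 2 was −1.16, with an unadjusted p of 0.00508 and an adjusted p of 0.968. In WT without that library, ethanol gave 0.23 (95% interval −0.33 to 0.78).

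A fit that also held a term for side A against side B, without library 2, called Lpin2 lower within LKO (adjusted p = 0.0235), with Lpin1, against 10.7% of all genes. It called Lpin2 lower in LKO than WT on ethanol (−1.31, adjusted p = 0.0311, 1.58% of genes) and averaged over diets (−0.73, adjusted p = 0.0267, 11.1% of genes). Lpin1 and Mogat1 were the members it called for the averaged ethanol contrast (32.6% of genes). Since the sides came from the same data, p-values of this fit can be too small, and its calls are given as description. The Lpin2 fall in LKO was uneven between sides, at −0.26 on side A and −1.60 on side B. Markers of 3 other cell types ran in the same order as Lpin2 over the 4 LKO ethanol libraries. For Kupffer cells and macrophages the 6 markers, none at 0 in all libraries, summed to 91.4, 212, 38.0 and 55.1 FPKM in libraries 1 to 4. For sinusoidal endothelium the sums of 6 markers were 62.2, 102, 40.5 and 53.7 FPKM, and for stellate cells and fibroblasts 20.1, 27.5, 13.9 and 19.4. The Kupffer cell and macrophage sums ranged from 63.5 to 169 in WT control, 76.7 to 218 in WT ethanol, 57.3 to 183 in LKO control and 38.0 to 212 in LKO ethanol, and in LKO control they did not follow the order of Lpin2. Endothelial sums ranged from 41.2 to 80.6, 12.1 to 84.1, 32.5 to 99.1 and 40.5 to 102 in the same groups, and stellate sums from 13.8 to 31.3, 14.6 to 57.2, 13.96 to 23.6 and 13.9 to 27.5. Their part in the Lpin2 difference was not tested.

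Dgat1 and Dgat2 catalyse the last step with unrelated proteins. Dgat2 is linked to newly made fatty acids and Dgat1 more to fatty acids taken up from outside. Dgat2 (ENSMUSG00000030747, chromosome 7, 99153658 to 99182719 on the minus strand) measured 238, 357, 288 and 378 FPKM in WT control and 382, 422, 422 and 388 in LKO control libraries. With ethanol it measured 285, 91.0, 303 and 316 in WT and 336, 348, 352 and 399 in LKO. Every LKO library was above every WT library on the same diet. Dgat1 (ENSMUSG00000022555, chromosome 15, 76502015 to 76511953, minus strand) ran the other way on the control diet, at 11.6, 12.1, 12.5 and 12.2 FPKM in WT and 9.89, 9.67, 10.8 and 11.5 in LKO. On ethanol it measured 12.6, 13.2, 15.05 and 13.8 in WT and 13.6, 10.6, 12.5 and 10.2 in LKO, where the groups overlapped.

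For single genes these differences were small and not called. Without ethanol, LKO minus WT was 0.38 for Dgat2 (log2, SE 0.336, adjusted p = 1.0) and −0.20 for Dgat1 (SE 0.181, adjusted p = 1.0). On that diet 2 of 8 members did not overlap, against 9.25% of genes. On ethanol Dgat2 differed by 0.68 (SE 0.336, adjusted p = 0.441) and was the 1 member that did not overlap, against 2.69% of genes. Without WT ethanol library 2 the Dgat2 difference was 0.25 (95% interval −0.12 to 0.62). In WT, Dgat1 was the 1 member whose ethanol libraries did not overlap with the control libraries, against 10.1% of genes, with a difference of 0.16 (SE 0.181, adjusted p = 0.665).

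Dgat1 spread little between libraries of a group, with a coefficient of variation of 3.14% in WT control, 7.55% in WT ethanol, 7.91% in LKO control and 13.7% in LKO ethanol. Dgat2 varied by 5.31 to 7.65% in the LKO groups, by 20.5% in WT control and by 42.6% in WT ethanol (5.26% without library 2). Each Dgat1 value rested on 247 to 690 reads and each Dgat2 value on 2025 to 23107.

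Mogat1 (ENSMUSG00000012187, chromosome 1, 78510991 to 78538173, plus strand) was near the detection limit. It measured 0.726, 0.546, 0.334 and 0.0781 FPKM in WT control and 1.42, 0, 0.235 and 0.613 in WT ethanol libraries. The LKO libraries measured 1.43, 0.406, 0.268 and 0.272 without ethanol and 3.08, 1.004, 0.617 and 0.789 on ethanol. These values came from 0 to 81 reads, and the groups overlapped in all 4 comparisons of diets or genotypes. All 8 members passed the filter of at least 1 FPKM in at least 4 libraries, Mogat1 with exactly 4 and its 4th at 1.004. Those 4 were WT ethanol library 1, LKO ethanol libraries 1 and 2 and LKO control library 1. Averaged over genotypes, the ethanol difference of Mogat1 was 0.30 (log2, SE 0.221, adjusted p = 0.477), a scale on which low genes are understated. In WT it was 0.08 (SE 0.312, adjusted p = 0.91) with library 2, which had no Mogat1 reads, and 0.27 (SE 0.321, adjusted p = 0.635) without it. The fit with a term for sides and without library 2 called Mogat1 higher in the averaged contrast (0.45, SE 0.158, adjusted p = 0.041), where it called 32.6% of all genes. Its sides came from the same data, and Mogat1 passed the filter mostly through ethanol libraries, so this call is no support for a rise.

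Ratios of 2 enzymes of the same step within a library do not move with the scaling of that library. The Dgat2 to Dgat1 ratio was higher in LKO than in WT livers on both diets. It was 20.5, 29.6, 23.1 and 30.9 in WT control, 22.5, 6.88, 20.1 and 22.9 in WT ethanol, 38.6, 43.6, 39.2 and 33.9 in LKO control, and 24.7, 32.7, 28.2 and 39.2 in LKO ethanol libraries. On neither diet did the genotypes overlap. The ratio was 1.68-fold higher in LKO over both diets, a log2 difference of 0.75. An exact permutation test over 4900 arrangements within diets gave p = 0.000408, the smallest it can give, and 0.00245 adjusted over 6 ratio tests (two-sided). Without WT ethanol library 2 it was 1.46-fold higher (exact permutation p = 0.000816, adjusted 0.0049). On sides A and B the genotype difference in log2 ratio came to 0.74 and 0.45 for control diet and to 0.33 and 0.63 for ethanol. Other gene pairs were not tested, so how often a ratio reaches the smallest p is not known. Among single genes, 9.25% did not overlap between genotypes on the control diet and 2.69% on ethanol. The pancreatic acinar marker sum was also higher in every LKO control library (17.4 to 27.0 FPKM) than in WT control (9.40 to 16.6). On ethanol the genotypes overlapped in it (8.04 to 17.8 against 7.21 to 13.3). Amy2a5, Cpa1, Ctrb1 and Prss2 were under 0.1 FPKM in all libraries, so this sum is mostly the value of Cela1. The part of Cela1 in the ratio was not tested.

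With all libraries 2 of the 3 ratios passed the test for ethanol, but only Agpat2 to Agpat3 also passed with each library left out. The Agpat2 to Agpat3 ratio was 2.67 ± 0.546 in WT control and 1.46 ± 0.416 in WT ethanol, and 2.51 ± 0.446 and 2.02 ± 0.483 in LKO. It was 1.53-fold lower with ethanol (−0.61 log2, exact permutation p = 0.00735, adjusted 0.022), and −0.54 without library 2 (adjusted 0.038). The libraries overlapped between diets in both genotypes. The Dgat2 to Dgat1 ratio was 1.41-fold lower with ethanol (−0.49 log2, exact permutation p = 0.0135, adjusted 0.0269), but this was lost when any of 7 libraries was left out, with adjusted p up to 0.117. The 7 were LKO control library 2, LKO ethanol libraries 1 and 3, WT control libraries 2, 3 and 4 and WT ethanol library 2. Without WT ethanol library 2 it was −0.28 (adjusted 0.0545). The Lpin1 to Lpin2 ratio was 0.874 ± 0.386 in WT control, 0.804 ± 0.784 in WT ethanol, 1.76 ± 0.675 in LKO control and 1.35 ± 1.34 in LKO ethanol. Neither diet (exact permutation p = 0.227, adjusted 0.272) nor genotype (exact permutation p = 0.136, adjusted 0.203) passed for it. Without library 2, whose own ratio was 1.97 against 0.356 to 0.528 in the other WT ethanol libraries, the genotype difference was 1.09 (exact permutation p = 0.0363, adjusted 0.0545).

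**Figure D3:**
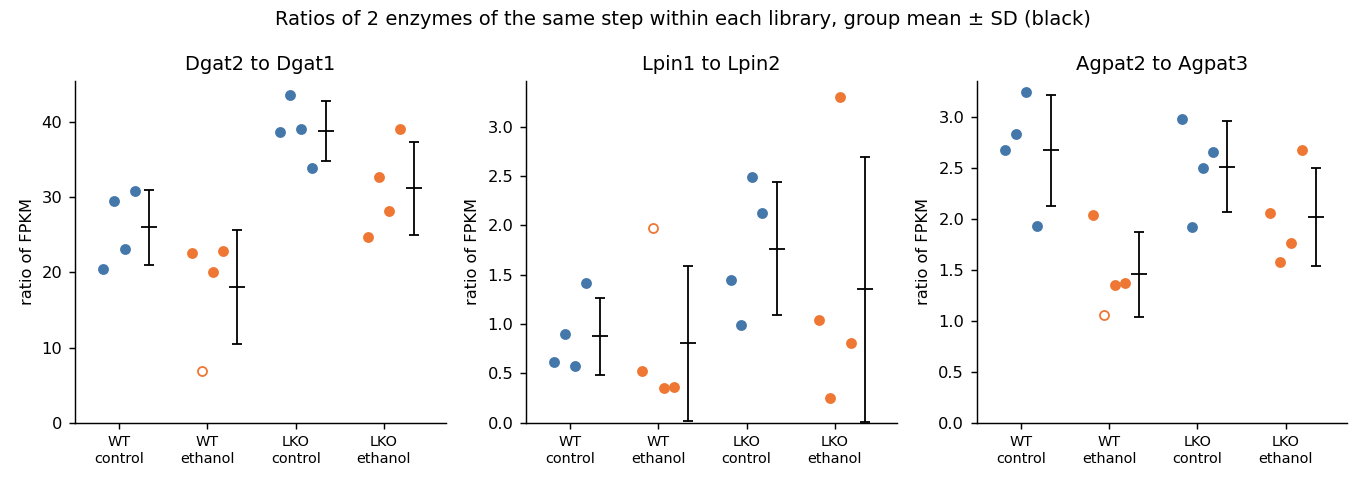
Ratios of FPKM (vertical axes, linear, from 0) of 2 enzymes of the same step in each library, by group, with WT ethanol library 2 as an open circle and group mean ± SD in black. In the left panel every LKO library lies above every WT library of the same diet, 33.9 to 43.6 against 20.5 to 30.9 on the control diet, while the Lpin1 to Lpin2 ratio overlaps between groups.

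The other genes of the pathway were read from 5 lists of 73 genes. Among 19 regulators, ethanol averaged over genotypes called 1 higher and 4 lower (all genes 7.78%), with a list median of −0.312 (log2) beside 0.0225 over all genes. Srebf1, the transcription factor that drives fatty acid and triglyceride synthesis, measured 71.2 ± 35.1 FPKM in WT control, 15.4 ± 10.9 in WT ethanol, 74.3 ± 5.59 in LKO control and 20.7 ± 10.2 in LKO ethanol. It fell by 2.09 (SE 0.325, adjusted p = 0.00113), and control and ethanol libraries did not overlap in either genotype, at 40.0 to 114 against 5.22 to 29.0 FPKM in WT. Insig1, which holds the SREBP precursor in the endoplasmic reticulum and is itself induced by SREBP, fell by 2.03 (SE 0.376, adjusted p = 0.00313). Insig2, which does the same and is known to rise on fasting, rose by 2.34 (SE 0.421, adjusted p = 0.00285), from 18.4 to 63.6 FPKM in the 8 control libraries to 33.6 to 446 in the 8 with ethanol. Mlxipl, the carbohydrate-responsive factor ChREBP, fell by 1.97 within WT (SE 0.476, adjusted p = 0.0279). In LKO it measured 39.7 to 78.0 FPKM without and 15.5 to 65.8 with ethanol, with overlap, and the interaction was 1.37 (SE 0.672, adjusted p = 0.927). Genotype, in limma averaged over diets, called 0 of the 19, with 2 at an unadjusted p under 0.05, against 10.4% of all genes.

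**Figure D4:**
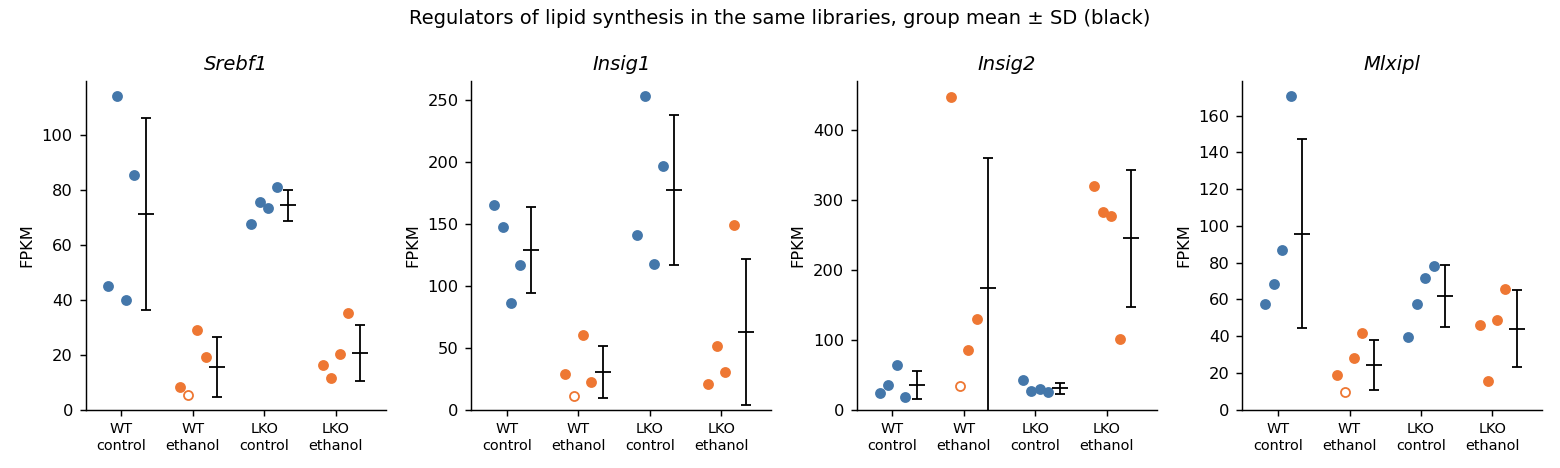
FPKM (vertical axes, linear, from 0) of 4 regulators in the 16 libraries, by group, control diet in blue and ethanol in orange, with WT ethanol library 2 as an open circle and group mean ± SD in black. Srebf1 lies at 40.0 FPKM or more in all control libraries and under that in all ethanol libraries, and Insig2 is higher in most ethanol libraries.

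Of 13 genes of triglyceride breakdown, 3 were called lower and 0 higher with ethanol, averaged over genotypes with all libraries (all genes 7.78%, 3.19% lower): Ces1d (−1.62, SE 0.286, adjusted p = 0.00245), Aadac (−0.91, SE 0.217, adjusted p = 0.0168) and Ces1f (−1.07, SE 0.283, adjusted p = 0.0278). These encode carboxylesterases and a deacetylase that hydrolyse stored lipid for lipoprotein assembly. Ces1d measured 635 to 992 FPKM in WT control and 69.9 to 302 in WT ethanol libraries, without overlap. In LKO it measured 418 to 659 without and 174 to 509 with ethanol, with overlap (−0.90, adjusted p = 0.502, against −2.34, adjusted p = 0.00572, in WT). Ces1f measured 229 ± 36.3 and 81.3 ± 61.3 FPKM in WT and 208 ± 41.1 and 161 ± 33.6 in LKO. The interaction did not pass for Ces1d (1.44, adjusted p = 0.927) or Ces1f (1.40, adjusted p = 0.927). In LKO alone limma called 0 of the 13 (0.425% of all genes), with 4 at an unadjusted p under 0.05 (9.19% of all genes). In WT alone 4 of the 13 were lower and 0 higher (4.18% of all genes), and without library 2 there were 4 lower and 2 higher (9.48% of all genes called). Without library 2, the averaged contrast called 2 higher and 3 lower (20.5% of all genes), among the higher Abhd5, the coactivator of adipose triglyceride lipase (0.82, SE 0.168, adjusted p = 0.00375).

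Other acyltransferases and phosphatases of the same steps numbered 14, of which 12 passed the filter. Ethanol averaged over genotypes called 1 of these 12, against 7.78% of all genes: Lpin3, higher, the remaining lipin gene (0.56, SE 0.149, adjusted p = 0.0294), at 0.615 to 1.66 FPKM in control and 1.26 to 3.99 in ethanol libraries. In WT the Lpin3 difference was 0.92 (SE 0.211, adjusted p = 0.0218), from 1.07 ± 0.464 to 2.91 ± 0.856 FPKM. In LKO the Lpin3 level was 1.48 ± 0.172 FPKM without and 1.89 ± 0.626 with ethanol, with overlap, and the interaction was −0.72 (SE 0.298, adjusted p = 0.927). Without library 2, 6 of the 12 were called higher and 0 lower (20.5% of all genes called). Among them were Gpat3 (1.11, SE 0.235, adjusted p = 0.00447), a glycerol-3-phosphate acyltransferase of the endoplasmic reticulum, and Plpp2 (0.96, SE 0.241, adjusted p = 0.0118). Of 11 genes of glycerol 3-phosphate and acyl-CoA supply, 0 were called with all libraries (all genes 7.78%) and 8 had an unadjusted p under 0.05 (all genes 21.6%). Without library 2, 3 were higher and 3 lower against the same 20.5%, among them Acsl4 (0.80, adjusted p = 0.00762), Slc27a2 (−0.64, adjusted p = 0.00895) and Gpd1 (0.56, adjusted p = 0.0154). Of 16 phospholipid genes, 15 passed the filter and 1 was called, against 7.78% of all genes, and was higher: Chka, the first enzyme of phosphatidylcholine synthesis from choline (1.95, SE 0.352, adjusted p = 0.00285). Without library 2 there were 4 higher and 2 lower, also against 20.5%, among the higher Chka (1.92, adjusted p = 0.00246), Etnk1 (0.71, adjusted p = 0.00512), the ethanolamine kinase, and Cdipt (0.60, adjusted p = 0.00512), which makes phosphatidylinositol. Genotype, in limma averaged over diets, called 0 genes of these 3 lists, with 1, 2 and 1 at an unadjusted p under 0.05, and 0 of the breakdown list, with 1, again against 10.4% of all genes.

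Among the members themselves, FPKM ranked most alike over the 16 libraries for Gpam and Dgat2, the entry and the last enzyme (Spearman rho 0.779, and 0.732 over 15 without WT ethanol library 2). Dgat1 and Dgat2 ranked in opposite order (rho −0.694 and −0.682). With group means removed, the Gpam and Dgat2 correlation was 0.898 (Pearson, log2 scale) with library 2 and 0.619 without it. The correlation for Dgat1 and Dgat2 was then 0.086 and −0.07. All of these share the depth and scaling of a library and are given as descriptions over 16 or 15 points. The kept genes most alike in rank were Pstpip2 (rho 0.903) and Nipsnap1 for Gpam, Tlr12 (0.915) and Leng1 for Agpat2, and Itgb5 (0.941) and Ube2cbp (0.941) for Agpat3. For Lpin1 they were Ttc39c (0.906) and Arhgef26, and for Lpin2 Tnfrsf1b (0.903) and Aaas. For Dgat1 they were Smim13 (0.891) and Osbpl11, for Dgat2 Ndfip1 (0.906) and Acy3, and for Mogat1 Cycs (0.915) and Mcts2.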

How the data were processed

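Total liver RNA of 16 libraries was sequenced, and the authors deposited 1 table of FPKM for 35275 Ensembl gene IDs. Per the submitters' processing notes, fastp, STAR 2.6.1, HTSeq, DESeq2 and the build mm10 were used, with no order or roles given. Strandedness, annotation and gene length are not given in the sources used here, so reads of overlapping or antisense genes may be shared. Symbols and positions came from GENCODE M21 (GRCm38), which matched 34490 IDs. Libraries were grouped by the treatment label.

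The deposited FPKM steps gave back whole reads: 100% of the values of 20520 genes (above 0 in 4 or more libraries) lay within 0.1 of a whole read. These reads gave the depths, which cover counting error only.

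Genes with at least 1 FPKM in at least 4 libraries (11298) were fitted as log2(FPKM + 1) by group means with limma 3.58.1 in R 4.3.3 (eBayes with trend, two-sided), with Benjamini-Hochberg adjustment over all of them and a threshold of 0.05, in 7 contrasts. Ratios were put to exact permutation tests within strata, adjusted over 6 tests. Alternatives were a pseudocount of 0.1, no filter, equal sums, quantile normalization, array weights, limma-voom on recovered reads, each library left out, and a term for side A against side B without WT ethanol library 2. The sides were drawn from the spread within groups of these same data, so p-values of the fit with that term can be too small. Values within sides were added after seeing the data. The scripts were tested on simulated data. Named genes were all members, Zfp36l1, at most the 3 of smallest adjusted p per list and contrast, and the 2 genes most alike in rank to each member. Members and lists were chosen with earlier results of these data known.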

Additional observations from a re-analysis of the deposited data

Results flagged for a closer look

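In each of the 8 enzymes and 4 groups, 32 sets of 4 libraries, the highest and the lowest library were compared with the rest, with a gap above Dixon's 95% critical value taken as large. By chance about 1 in 20 sets would show such a gap. It was seen in 5 sets. Agpat2 measured 110 FPKM in LKO ethanol library 4 (110.465), against 71.8 to 74.2 in the other 3. Lpin2 measured 84.1 FPKM (84.0775) in WT control library 4, against 63.2 to 64.4. Dgat2 measured 91.0 FPKM (90.9562) in WT ethanol library 2, the library that stood apart in the whole table, against 285 to 316. Mogat1 measured 1.43 FPKM (1.4314) in LKO control library 1, against 0.268 to 0.406. Mogat1 measured 3.08 FPKM (3.07871) in LKO ethanol library 1, against 0.617 to 1.004, and these Mogat1 values rest on 8 to 81 reads.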

How the results depend on the processing

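Of 392 member values under other settings, 355 kept their direction and side of the threshold, 16 gained a call, 1 lost it and 20 changed direction. None of those 20 was called. The Dgat2 to Dgat1 difference between genotypes passed with a pseudocount of 1, with medians in place of means and with each library left out, and the Agpat2 to Agpat3 difference with ethanol did too. With array weights (0.0418 for WT ethanol library 2) the members called were 1 in WT (Agpat3, 38.4% of all genes called), 1 in LKO (Lpin2, 7.69%), 2 between genotypes on ethanol (Agpat3, Lpin2, 30.7%), 1 in the interaction (Lpin2, 4.48%), 3 for ethanol over genotypes (Agpat3, Lpin1, Dgat1, 36.7%) and 4 for genotype over diets (Agpat3, Lpin2, Dgat1, Dgat2, 34.1%); 0 were called for ethanol over genotypes with no filter (2.63% of 24377 genes). The cause was not tested. Values that changed direction with array weights were, for ethanol in WT, Lpin2 0.3578 and Mogat1 −0.1246; between genotypes on ethanol, Gpam −0.3116 and Agpat2 −0.2544; in the interaction, Gpam −0.5849, Agpat2 −0.09189 and Dgat2 −0.1561; and over diets, Gpam −0.01919 and Agpat2 −0.2084. Equal sums gave Agpat3 −0.01407 on the control diet and Dgat1 0.1443 in the interaction, a pseudocount of 0.1 gave Mogat1 −0.04594 for ethanol in WT, and quantile normalization gave Agpat2 −0.003184 over diets. Equal sums moved the median of all genes in the interaction from 0.0894 to 0.198, and quantile normalization moved that of genotype on the control diet from −0.103 to −0.00231.

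The fit with a term for sides and without WT ethanol library 2 called 2 members for ethanol in LKO, 1 for genotype on ethanol, 2 for ethanol over genotypes and 1 for genotype over diets, named in the report. It changed the direction of Lpin2 for ethanol in WT (0.2324), of Agpat2 (−0.05016) and Lpin1 (−0.0482) between genotypes on ethanol, of Gpam (−0.2756), Agpat2 (−0.001021) and Dgat2 (−0.1099) in the interaction, and of Agpat2 over diets (−0.04965).

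Leaving out each library in turn changed direction in 29 of 896 values. The ranges were −0.8808 to 0.2265 for Lpin2 and −0.1538 to 0.2717 for Mogat1 with ethanol in WT, and −0.004179 to 0.1183 for Agpat3 with ethanol in LKO. Between genotypes on the control diet they were −0.1664 to 0.1377 for Agpat2, −0.03126 to 0.1158 for Agpat3 and −0.09128 to 0.2314 for Mogat1. On ethanol they were −0.1113 to 0.2747 for Agpat2 and −0.2964 to 0.4595 for Lpin1, and over diets −0.08021 to 0.1311 for Agpat2. In the interaction they were −0.3207 to 0.8964 for Gpam, −0.06213 to 0.3238 for Agpat2, −0.08412 to 0.04499 for Dgat1 and −0.1282 to 0.4673 for Dgat2. The Dgat2 to Dgat1 difference with ethanol ranged from −0.5716 to −0.2821. Members called numbered 0 to 1 for ethanol in LKO (0.0531 to 3.62% of all genes) and for ethanol over genotypes (4.59 to 20.5%). No paired analysis was possible because the labels give no replicate numbers shared between groups. Running numbers in the titles are consecutive for some control and ethanol libraries, but the labels do not say that these are pairs; the term for sides is the nearest to a block that was fitted. Depth limits Mogat1 most, at 0 to 81 reads.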
